A study of Mus musculus with 6 samples.

Results

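The genes described here encode Wnt receptors and the intracellular and target genes through which the pathway is commonly read: the Frizzled receptors Fzd1, Fzd2, Fzd7 and Fzd8, the co-receptors Lrp5, Lrp6 and Ror2, beta-catenin (Ctnnb1), the transcription factor Lef1 and the feedback gene Axin2. They were chosen by name, with earlier results of these data known, and all 10 were among the 12235 genes of the deposited table. The RNA came from cancer-associated fibroblasts that carry podoplanin (pCAFs), sorted out of mammary tumours in BALB/c mice. The tumours grew from 100000 cells of 4T1, a mammary carcinoma line, injected into the mammary fat pad of females aged 8 weeks. The labels call the injected line GFP-marked in one place and luciferase-marked in another. Both groups shared this treatment and the same gate, in which live cells were negative for Ter119, CD45 and EpCAM, which mark red, immune and epithelial cells, and positive for PDPN. They differed in the surface protein Ly6C, with 3 libraries of Ly6C+ and 3 of Ly6C- pCAFs. The labels do not say whether the libraries came from separate animals or from pools, so the p-values measure the spread between these libraries.

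Wnt proteins are secreted lipid-modified ligands that bind a Frizzled receptor at the cell surface. In the canonical branch the Frizzled pairs with LRP5 or LRP6, which stops a cytoplasmic complex of AXIN, APC and GSK3 from degrading beta-catenin, so that beta-catenin enters the nucleus and activates target genes with TCF and LEF factors. In other branches, Wnt5a in particular acts through ROR2 and related receptors without beta-catenin and alters cell polarity and movement. In fibroblasts the pathway is known for its part in matrix production and fibrosis, and AXIN2 is itself a target that feeds back on the pathway.

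The Ly6C+ libraries held 2150531 to 2818269 reads and the Ly6C- libraries 1176909 to 1721480, from the 3′ ends of mRNA. Values below are normalised counts as deposited, which were not divided by gene length. All 12 fibroblast markers examined were present, of which 6 were higher in Ly6C+ pCAFs, 1 was lower and 5 did not pass. The mean of Pdgfra was 519 ± 33 in Ly6C+ against 218 ± 11.9 in Ly6C- pCAFs (SD, n = 3), and that of Pdgfrb, which mural cells also express, was 333 ± 117 against 799 ± 256. Ly6c1, the sorting criterion, followed the labels. Epcam did not exceed 2.95 and Cdh1 did not exceed 1.97 in any library. The summed level of 12 epithelial and carcinoma markers was 15.9 to 60.3 in Ly6C+ and 121 to 394 in Ly6C- libraries. For 9 markers of pericytes and smooth muscle it was 197 to 253 and 732 to 1191. Of these lists, 2 epithelial markers (Krt14 and Krt19) and 6 mural markers were lower in Ly6C+ pCAFs, and 1 mural marker, Kcnj8, was higher. Ptprc, which encodes CD45, was at most 4.88 in the Ly6C+ libraries and 0 in every Ly6C- library. The 9 leukocyte markers summed to 259 to 1159 in Ly6C+ and 66.9 to 414 in Ly6C- libraries. Of the 7 tested, Lyz2 and Cd3e were higher in Ly6C+ pCAFs and 5 did not pass. Among these 5, only Cd74 had a lower mean in Ly6C+ pCAFs, at 53.0 ± 28.1 against 127 ± 164. In Ly6C- replicate 1, Cd74 stood at 315 and made up most of the sum of 414. The highest sum was that of Ly6C+ replicate 1, where S100a9 stood at 478, against at most 4.51 in any other library. Of 4 endothelial markers tested, Tek and Plvap were higher and Kdr and Egfl7 lower in Ly6C+ pCAFs. The part of such cells in the results below was not tested. In bulk samples, fewer cells of a type and less RNA per cell cannot be told apart.

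The 2 groups of pCAFs differed in these genes in both directions. Fzd1, Ror2 and Axin2 were lower in Ly6C+ pCAFs and Lrp6 was higher, each by about the same factor, while Fzd2, Fzd7, Fzd8, Lrp5 and Ctnnb1 did not pass the test. The test was limma on log2(value + 1) over the 9646 genes with a mean of at least 5, with Benjamini-Hochberg (BH) adjusted p under 0.05 as the threshold. Of the 10 genes, 9 entered it, and Lef1 fell under the filter. The 4 that passed are 44.4% of the 9, where 17.1% of all genes tested passed, 9.41% being higher and 7.66% lower in Ly6C+ pCAFs. The genes were chosen with earlier results of these data known, so these shares are given as a description. The values did not overlap between the groups for 6 of the 9 (Fzd8 and Lrp6 being higher in Ly6C+ pCAFs, and Fzd1, Ror2, Ctnnb1 and Axin2 lower), where this held for 33.1% of all genes tested, 17.1% higher and 16.1% lower. The median log2 fold change of the 9 genes was -0.04, beside -0.00 for all genes. A fold is the ratio of the means of both groups, and a log2 fold change is Ly6C+ minus Ly6C-.

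**Figure D1:**
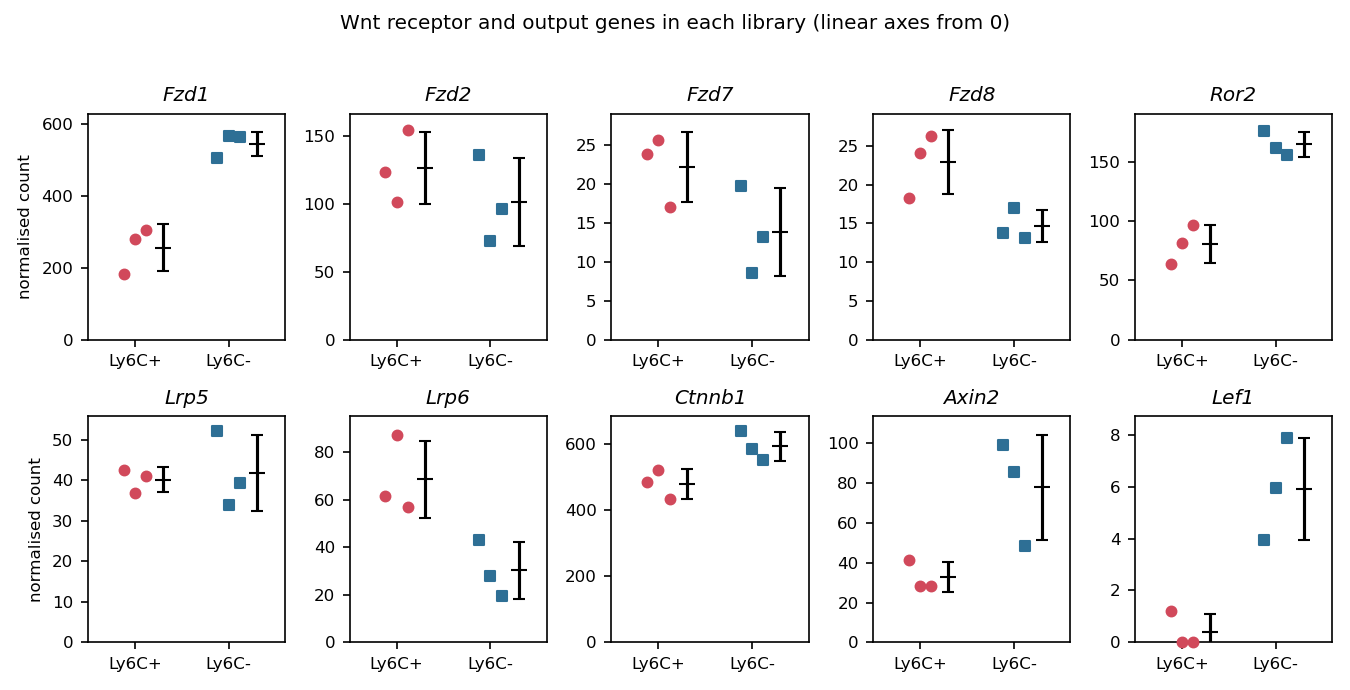
Normalised count (vertical axes, linear from 0) of each of the 10 genes in the 3 Ly6C+ (circles) and 3 Ly6C- (squares) libraries, with the group mean and SD beside the points. The groups do not overlap for Fzd1, Fzd8, Ror2, Lrp6, Ctnnb1, Axin2 and Lef1, and they overlap for Fzd2, Fzd7 and Lrp5.

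**Figure D2:**
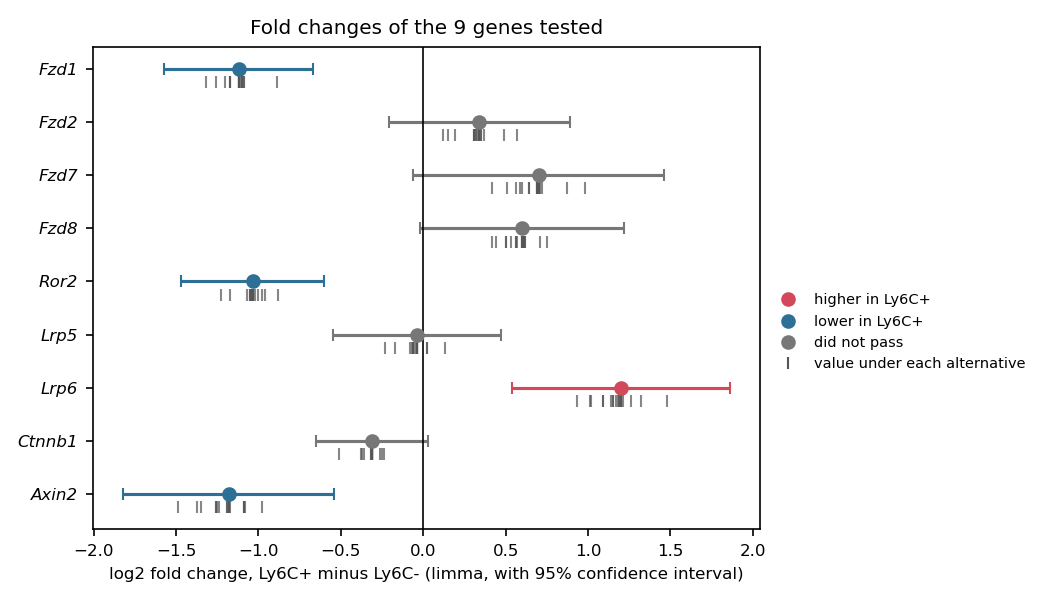
Log2 fold change (horizontal axis, Ly6C+ minus Ly6C-) of the 9 genes tested with limma, with its 95% confidence interval. The ticks under each point are the values under each alternative setting, and they stay on one side of 0 for every gene except Lrp5.

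The promoters of the 3 genes that were lower in Ly6C+ pCAFs are shown first, with that of Fzd7, the Frizzled whose window holds a complete TCF/LEF motif. The windows are the 250 bases before the RefSeq transcription start in GRCm38.p6, written 5′ to 3′ on the strand of the gene. Capitals mark the TCF/LEF core CTTTG on either strand, or the whole motif where it is complete. The windows are chr11:108920099-108920348 (plus strand) for Axin2, chr13:53286125-53286374 (minus strand) for Ror2, chr5:4758217-4758466 (minus strand) for Fzd1 and chr1:59481897-59482146 (plus strand) for Fzd7.
Axin2: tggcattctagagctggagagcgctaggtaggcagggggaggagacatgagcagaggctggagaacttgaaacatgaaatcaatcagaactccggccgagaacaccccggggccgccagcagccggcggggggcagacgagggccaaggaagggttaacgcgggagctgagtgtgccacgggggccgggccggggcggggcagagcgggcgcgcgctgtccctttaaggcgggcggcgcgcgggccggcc
Ror2: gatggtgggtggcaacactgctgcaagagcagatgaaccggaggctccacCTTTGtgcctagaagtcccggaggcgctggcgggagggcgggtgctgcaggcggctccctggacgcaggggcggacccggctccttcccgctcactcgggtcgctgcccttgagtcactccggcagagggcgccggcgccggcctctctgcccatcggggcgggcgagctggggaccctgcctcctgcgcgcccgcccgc
Fzd1: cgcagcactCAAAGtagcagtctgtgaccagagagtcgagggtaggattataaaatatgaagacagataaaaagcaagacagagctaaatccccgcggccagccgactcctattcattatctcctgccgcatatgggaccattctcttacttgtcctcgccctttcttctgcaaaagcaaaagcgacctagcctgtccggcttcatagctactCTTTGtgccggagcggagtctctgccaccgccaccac
Fzd7: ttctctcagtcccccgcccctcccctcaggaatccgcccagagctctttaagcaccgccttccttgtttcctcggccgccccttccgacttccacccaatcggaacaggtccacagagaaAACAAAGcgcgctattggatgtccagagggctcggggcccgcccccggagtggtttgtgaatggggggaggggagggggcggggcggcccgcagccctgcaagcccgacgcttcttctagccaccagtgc
The complete motif was searched on both strands as CTTTGNN with A or T at each N, and it contains the core. Of the 10 genes, 6 had a window in the table of promoters, of which 2 held a complete motif and 4 the core in at least 1 window. Fzd7 held CTTTGTT on the opposite strand, in capitals above, and 1 of the 4 Lef1 windows held CTTTGTA. Among all 32851 windows of the same length, 14.8% held a complete motif and 48.6% held the core. Counted by gene, over the 9673 genes of the deposited table with a window, these were 12.1% and 46.7%. Axin2 held neither in this window, Ror2 held the core 1 time and Fzd1 held it 2 times. The Axin2 and Ror2 windows were rich in G and C, at 69.2% and 73.2% against a median of 52.4% over all windows, and the Fzd1 window stood at 51.2%. A match is a description of letters and not a binding site.

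Fzd1, a Frizzled that couples to canonical Wnt signalling, was 2.13-fold higher in Ly6C- pCAFs. Its normalised counts were 182, 279.6 and 305 in the Ly6C+ libraries and 506, 565 and 564 in the Ly6C- libraries. All 3 Ly6C- libraries lay above all 3 Ly6C+ libraries, and Ly6C+ replicate 1 was the lowest. The means were 256 ± 64.8 and 545 ± 33.7, with a log2 fold change of -1.12 (SE 0.20; limma BH-adjusted p = 0.00284). The gene lies on chromosome 5, 4753839 to 4758035, minus strand, in mm10.

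Fzd2, a close relative of Fzd1 and Fzd7, stood at 123, 101 and 154 in Ly6C+ and at 136, 72.3 and 95.7 in Ly6C- libraries. The groups overlapped, and the gene did not pass (log2 fold change 0.34, 95% interval -0.21 to 0.89; limma BH-adjusted p = 0.422). The interval excludes a decrease as large as that of Fzd1. Fzd2 lies on chromosome 11, 102604396 to 102608058, plus strand.

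Fzd7, which is often studied in stem and carcinoma cells, stood at 23.8, 25.6 and 17.0 in Ly6C+ and at 19.7, 8.51 and 13.1 in Ly6C- libraries. These values rest on 95 and 40 reads, and Ly6C- replicate 1 overlapped the Ly6C+ range. The log2 fold change was 0.70 (95% interval -0.06 to 1.46; limma BH-adjusted p = 0.217). The gene lies on chromosome 1, 59482424 to 59486955, plus strand.

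Fzd8 stood at 18.3, 24.1 and 26.3 in Ly6C+ and at 13.8, 17.0 and 13.1 in Ly6C- libraries. The groups did not overlap, on 96 and 44 reads, but the gene did not pass (log2 fold change 0.60, 95% interval -0.02 to 1.22; limma BH-adjusted p = 0.189). Fzd8 lies on chromosome 18, 9212163 to 9218136, plus strand. The point estimates of Fzd2, Fzd7 and Fzd8 were thus all above 0, opposite to Fzd1, and none of the 3 passed.

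Because the scaling of a library cancels in a ratio of genes within it, the Frizzled genes were also compared with each other. The ratio of Fzd1 to Fzd2 was 1.48, 2.76 and 1.98 in the Ly6C+ libraries and 3.72, 7.81 and 5.89 in the Ly6C- libraries. Every Ly6C- library had the higher ratio, by 2.77-fold on the geometric mean. The ratio of Fzd1 to Fzd7 was 7.67, 10.9 and 18.0 against 25.7, 66.4 and 43.0, a 3.65-fold difference. The ratio of Fzd2 to Fzd7 differed by 1.32-fold and overlapped between the groups. The exact two-sided permutation p was 0.10 for the Fzd1/Fzd2 and Fzd1/Fzd7 ratios, which is the smallest that 3 libraries against 3 can give, and 0.400 for Fzd2/Fzd7. Adjusted over the 4 ratios tested, they were 0.133, 0.133 and 0.400 (exact permutation test).

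The make-up of the Frizzled reads, a measure chosen after the values were seen, also differed between the groups. The table holds 9 Frizzled genes, and their summed level was 377, 466 and 532 in the Ly6C+ libraries and 709.6, 698 and 716 in the Ly6C- ones. Fzd1 took 48.4%, 60.0% and 57.3% of it in Ly6C+ libraries and 71.3%, 80.9% and 78.8% in Ly6C- libraries. Fzd2 took 27.8% ± 5.54 and 14.3% ± 4.46, and Fzd8 4.98% ± 0.159 and 2.07% ± 0.322 (SD, n = 3). The shares rest on 546 to 821 Frizzled reads per library.

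**Figure D3:**
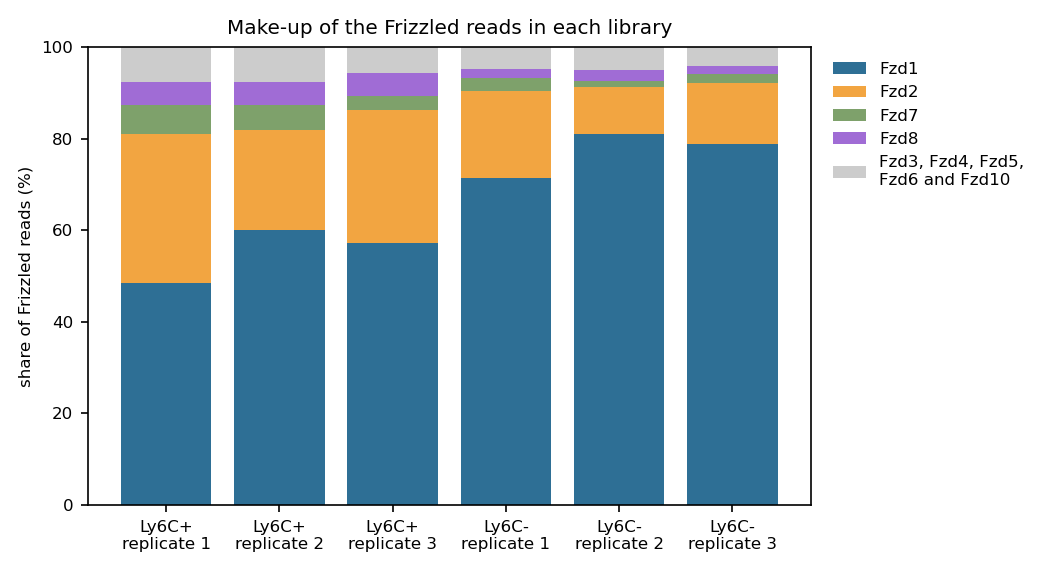
Share of the summed Frizzled normalised counts (vertical axis, %) taken by Fzd1, Fzd2, Fzd7, Fzd8 and the other Frizzled genes in each of the 6 libraries (bars). Fzd1 makes up 48.4% to 60.0% in Ly6C+ and 71.3% to 80.9% in Ly6C- libraries.

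Ror2, a receptor tyrosine kinase that binds Wnt5a, was 2.04-fold higher in Ly6C- pCAFs. It stood at 64.0, 81.9 and 96.6 in the Ly6C+ and at 176, 162 and 156 in the Ly6C- libraries. The groups were well apart, the highest Ly6C+ library lying below the lowest Ly6C- library. The means were 80.9 ± 16.3 and 165 ± 10.4 (log2 fold change -1.03, SE 0.20; limma BH-adjusted p = 0.00371). Ror2 lies on chromosome 13, 53109312 to 53286124, minus strand. Its paralog Ror1 stood at 8.54, 17.3 and 7.73 against 2.95, 8.51 and 7.87, which did not pass (log2 fold change 0.73, SE 0.48; limma BH-adjusted p = 0.359). Ror1 was chosen after its values were seen, and its groups overlapped.

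Of the canonical co-receptors, Lrp6 was higher in Ly6C+ pCAFs and Lrp5 did not pass. Lrp6 stood at 61.6, 87.2 and 57.2 in Ly6C+ and at 43.3, 28.1 and 19.7 in Ly6C- libraries, without overlap. The means were 68.7 ± 16.2 and 30.3 ± 12, a 2.26-fold difference (log2 fold change 1.20, SE 0.30; limma BH-adjusted p = 0.0173). The call ended without Ly6C+ replicate 1 (limma BH-adjusted p = 0.0537), Ly6C+ replicate 2 (0.0863) or Ly6C- replicate 2 (0.0632), with log2 fold changes of 1.26, 1.02 and 1.18. Lrp5 stood at 42.7, 36.8 and 41.0 in Ly6C+ and at 52.2, 34.0 and 39.3 in Ly6C- libraries. Its log2 fold change was -0.04, with a 95% interval of -0.55 to 0.47 (limma BH-adjusted p = 0.943), so the interval excludes the change measured for Lrp6.

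The ratio of Lrp5 to Lrp6 was 0.693, 0.422 and 0.716 in the Ly6C+ libraries and 1.20, 1.21 and 2.00 in the Ly6C- ones. It lay below 1 in every Ly6C+ and above 1 in every Ly6C- library, a 2.41-fold difference (exact two-sided permutation p = 0.10, adjusted over the 4 ratios 0.133). Lrp5 lies on chromosome 19, 3584828 to 3686564, and Lrp6 on chromosome 6, 134446476 to 134566965, both on the minus strand.

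Ctnnb1, which encodes beta-catenin, the coactivator of the canonical branch and a structural part of cadherin junctions, stood at 485, 521 and 433 in Ly6C+ and at 642, 587 and 553 in Ly6C- libraries. The groups did not overlap, but the difference was small and did not pass (log2 fold change -0.31, 95% interval -0.65 to 0.03; limma BH-adjusted p = 0.222). When libraries were scaled to their totals the gene passed (log2 fold change -0.51; limma BH-adjusted p = 0.0442). Under it the median over all genes shifted by -0.19 on the log2 scale. Ctnnb1 lies on chromosome 9, 120929216 to 120960507, plus strand. Ulk4 and 4930593C16Rik overlap it on the opposite strand and Mir7090 on its own, and reads of overlapping genes cannot be told apart where strand was not used in counting, which is not given in the sources used here. Ulk4 was much lower, at 4.27 to 6.01 in Ly6C+ and 15.7 to 27.2 in Ly6C- libraries. Transcript levels do not measure the amount or the location of the beta-catenin protein, by which the pathway acts.

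Axin2, the scaffold of the destruction complex that is also a widely used readout of canonical Wnt activity, was 2.37-fold higher in Ly6C- pCAFs. It stood at 41.5, 28.6 and 28.6 in the Ly6C+ and at 99.4, 85.9 and 48.5 in the Ly6C- libraries. The groups did not overlap, and the Ly6C- libraries were uneven, with replicate 3 close to the highest Ly6C+ value. The means were 32.9 ± 7.45 and 77.9 ± 26.4 (log2 fold change -1.18, SE 0.29; limma BH-adjusted p = 0.0160). The call ended without Ly6C+ replicate 2 (limma BH-adjusted p = 0.0640), Ly6C+ replicate 3 (0.0568) or Ly6C- replicate 2 (0.0794), with log2 fold changes of -1.09, -1.09 and -1.08. Among the Ly6C- libraries, the epithelial marker sum was 394, 229.7 and 121, in the same order as Axin2. The mural marker sum, at 1191, 943 and 732, had that order too. Single markers did not all follow their sum. Of the mural markers only Des fell in that order (684, 322 and 76.0). Cspg4 (324, 378 and 399.9), Acta2 (81.7, 101 and 127), Notch3 and Mcam rose instead. Krt7, Krt8 and Krt18 fell with the epithelial sum, but Krt14 (25.6, 40.8 and 26.2) and Krt19 (57.1, 24.7 and 53.8) did not. Ror2, Ctnnb1 and Lrp6, which was called in the other direction, fell in the order of Axin2 too. Among the Ly6C- libraries, replicate 1 was highest for Axin2, both sums, Ror2, Ctnnb1 and Lrp6. It was lowest for Cspg4, Acta2, Notch3, Mcam, Myh11 and Krt14. Without Ly6C- replicate 1 the log2 fold change of Axin2 was -0.98 (limma BH-adjusted p = 0.0464). The epithelial sums of 229.7 and 121 that remained were still above the Ly6C+ range of 15.9 to 60.3. That fit therefore cannot decide on a part of such cells, which was not tested. Axin2 lies on chromosome 11, 108920349 to 108950783, plus strand, overlapped on the other strand by Gm11670. Its paralog Axin1, chosen after its values were seen, did not pass (72.5 ± 13.2 against 74.5 ± 11.4; log2 fold change -0.04; limma BH-adjusted p = 0.925).

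Lef1, a DNA-binding partner of beta-catenin and itself a Wnt target, was near the floor. It stood at 1.22, 0 and 0 in Ly6C+ and at 3.94, 5.95 and 7.87 in Ly6C- libraries, which is 2 reads against 17. Both Ly6C+ reads lay in replicate 1. The ratio on pooled reads was 12.3 in favour of Ly6C- pCAFs, with an exact 95% counting interval of 2.91 to 109, which covers counting error only. Without Ly6C+ replicate 1 no Lef1 read was left in that group. With 3 reads set for that group as a whole, the ratio was 5.03. That value takes the Ly6C- reads as exact and is not a lower confidence limit. With no filter on low values the gene was tested and passed (log2 fold change -2.37, SE 0.50; limma BH-adjusted p = 0.00752). Lef1 lies on chromosome 3, 131110471 to 131224356, plus strand, with Gm42449 and Gm43352 overlapping it.

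The other TCF factors parted into 2 directions. Tcf7, which like Lef1 is mostly an activator when bound to beta-catenin, stood at 2.44, 6.01 and 0 in Ly6C+ and at 11.8, 33.2 and 18.4 in Ly6C- libraries, 7.49-fold higher in the latter (log2 fold change -2.82, SE 0.67; limma BH-adjusted p = 0.0138, or 0.0806 without Ly6C- replicate 2). Tcf7l1, known chiefly as a repressor, stood at 232, 174 and 185 in Ly6C+ and at 109, 93.6 and 115 in Ly6C- libraries, a 1.86-fold difference (log2 fold change 0.88, SE 0.18; limma BH-adjusted p = 0.00681). Tcf7l2, which can activate or repress, was likewise higher there, by 2.38-fold (40.0 ± 8.72 against 16.8 ± 3.32; limma BH-adjusted p = 0.0111, or 0.0673 without Ly6C+ replicate 1). The values of all 3 genes did not overlap between the groups. Among all 19 nuclear partners of beta-catenin tested, 4 were higher, 1 was lower and 14 did not pass, with a median log2 fold change of 0.06, where 17.1% of all genes tested passed. The other 2 that were higher encode Groucho family corepressors, Tle2 (2.95-fold; 57.9 ± 9.86 against 19.6 ± 7.62) and Tle5 (1.73-fold), a short member that antagonises the others. The Tle5 call ended in 7 of 20 alternatives (limma BH-adjusted p up to 0.106), among them those without Ly6C+ replicates 1 or 2 or Ly6C- replicates 2 or 3.

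**Figure D4:**
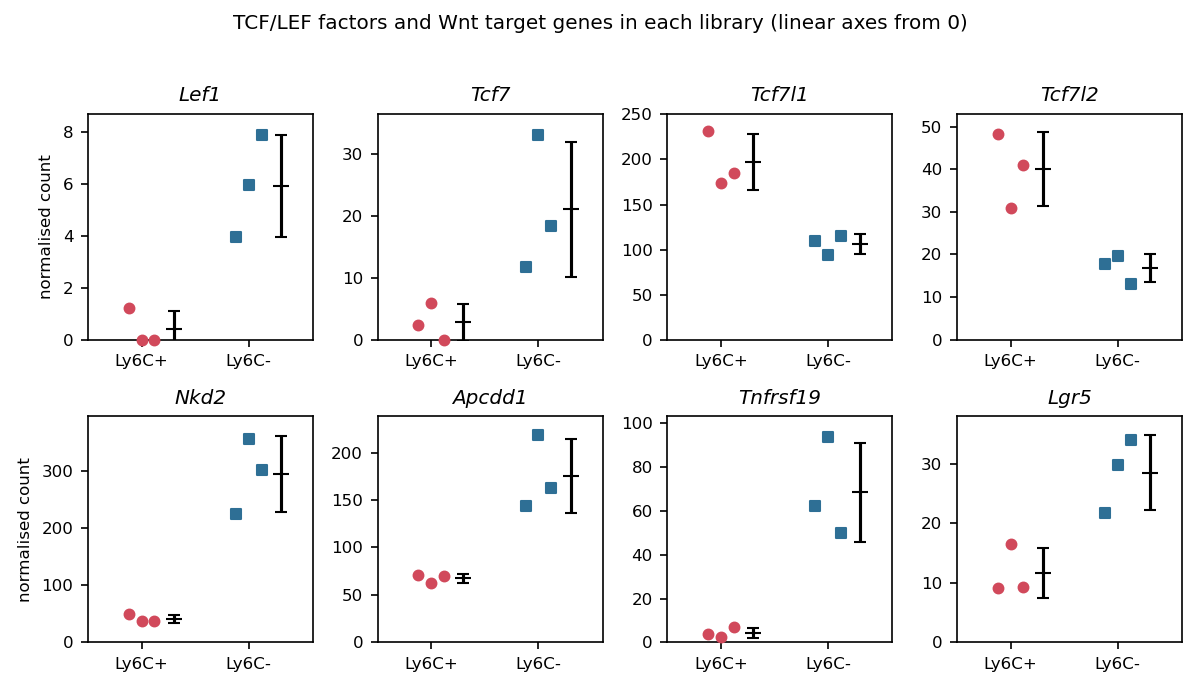
Normalised count (vertical axes, linear from 0) of Lef1, the 3 other TCF genes and the target genes Nkd2, Apcdd1, Tnfrsf19 and Lgr5 in the 3 Ly6C+ (circles) and 3 Ly6C- (squares) libraries, with mean and SD beside them. Lef1, Tcf7 and the 4 target genes are lower in every Ly6C+ library than in any Ly6C- library, and Tcf7l1 and Tcf7l2 are higher.

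Genes often used beside Axin2 as Wnt targets or feedback inhibitors went both ways. Of 18 tested, 7 were lower in Ly6C+ pCAFs, 5 were higher and 6 did not pass, with a median log2 fold change of -0.71. Over all genes tested, 7.66% were lower and 9.41% higher. Nkd2, which inhibits Dishevelled, stood at 50.0, 37.6 and 37.9 in Ly6C+ and at 225, 357 and 303 in Ly6C- libraries, 7.06-fold higher in the latter (log2 fold change -2.78, SE 0.22; limma BH-adjusted p = 8.73e-06). Tnfrsf19, a TNF receptor family gene also called Troy, stood at 3.66, 2.26 and 6.95 against 62.0, 93.6 and 49.8, 16-fold higher in Ly6C- pCAFs. Apcdd1, a membrane inhibitor of Wnt binding, stood at 71.4, 62.4 and 69.5 against 144, 219 and 163, a 2.59-fold difference. None of these 3 overlapped between the groups.

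The targets that were higher in Ly6C+ pCAFs were not feedback inhibitors for the most part. They were the matricellular gene Ccn5 (6.86-fold; 672 ± 225 against 98.0 ± 24.7), the growth factor gene Fgf18 (2.98-fold; 205 ± 38.8 against 68.7 ± 4.43), the transcription factor genes Myc (3.11-fold; 515 ± 65.5 against 165 ± 46.4) and Jun (1.64-fold), and Dact1, a Dishevelled-binding modulator (2.42-fold). Myc and Jun are also induced by many other signals and by tissue dissociation. A part of other signals or of dissociation in the calls of target genes, higher or lower, was not tested. The Jun call ended after quantile normalization (log2 fold change 0.20; limma BH-adjusted p = 0.430) and without Ly6C- replicate 2 (0.0577). The Dact1 call ended in 8 of 20 alternatives (limma BH-adjusted p up to 0.126), among them every one that left out a library except Ly6C- replicate 3. Jun, Dact1 and the feedback genes that follow were named after their values were seen. The feedback genes Nkd1, Notum and Znrf3 fell under the filter, with at most 18 reads in either group. The remaining members that were lower were Tcf7, Lgr5, Ccn4 and Prickle1, the last 2 being 3.15-fold and 2.76-fold higher in Ly6C- pCAFs.

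Other Wnt receptors and co-receptors also differed in both directions. Of 14 tested, 4 were higher in Ly6C+ pCAFs, 3 were lower and 7 did not pass, with a median log2 fold change of 0.06. Over all genes tested, 9.41% were higher and 7.66% lower. Kremen1, a receptor for the Dickkopf inhibitors that removes LRP6 from the surface, stood at 138, 135 and 149.9 in Ly6C+ and at 486, 490.0 and 527 in Ly6C- libraries, 3.55-fold higher in the latter (log2 fold change -1.82, SE 0.15; limma BH-adjusted p = 1.34e-05). Ptk7, a pseudokinase of planar polarity, was 4.57-fold higher in Ly6C- pCAFs (71.4 ± 19.6 against 326 ± 39.6). Lgr5, a receptor for R-spondins and a Wnt target, was 2.45-fold higher there (11.7 ± 4.23 against 28.5 ± 6.31; limma BH-adjusted p = 0.0214). The Lgr5 call ended without Ly6C+ replicates 1 or 3 or Ly6C- replicates 2 or 3 (limma BH-adjusted p = 0.0873, 0.0695, 0.0879 and 0.0567). Kremen1 and Ptk7 kept theirs in each of 20 alternatives.

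The genes of this group that were higher in Ly6C+ pCAFs were Gpc3, Reck, Fzd4 and Adgra2. Gpc3, a cell-surface heparan sulphate proteoglycan that binds Wnt and Frizzled, was 3.88-fold higher (124 ± 18.6 against 32.0 ± 15.5; limma BH-adjusted p = 0.00103). Reck and Adgra2, which encodes GPR124, form a co-receptor for Wnt7 ligands. Reck was 2.57-fold higher (55.1 ± 12.1 against 21.4 ± 5.48; limma BH-adjusted p = 0.00577) and Adgra2 1.46-fold (limma BH-adjusted p = 0.0438). The Adgra2 call ended in 11 of 20 alternatives (limma BH-adjusted p up to 0.186), among them edgeR and each one that left out a library except Ly6C- replicate 1. Fzd4 stood at 7.32, 12.8 and 11.6 in Ly6C+ and at 1.97, 0.851 and 0 in Ly6C- libraries. It rested on 44 and 3 reads, a ratio of 10.2 with an exact 95% counting interval of 3.26 to 51.2, and its call ended without Ly6C+ replicate 2 (limma BH-adjusted p = 0.0548). Fzd3 stood at 2.44, 3.76 and 4.64 in Ly6C+ and at 12.8, 11.9 and 6.56 in Ly6C- libraries, on 15 and 32 reads. Its groups did not overlap, but it did not pass (log2 fold change -1.29, SE 0.45; limma BH-adjusted p = 0.0744). It passed in 5 of 19 alternatives, among them edgeR (adjusted p = 0.0413 with TMM scaling). Fzd3 was named after its values were seen. Among the Frizzled genes, Fzd1 was thus called lower and Fzd4, at a low level, higher in Ly6C+ pCAFs.

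The cytoplasmic machinery between receptor and nucleus gave no call. Of 18 genes of the transducers and the destruction complex tested, 0 passed in limma, edgeR or DESeq2 fitted without a replicate block, and 1 had an unadjusted p under 0.05. Their median log2 fold change was -0.05. Over all genes tested, 17.1% passed in limma. The gene with the smallest p was Csnk1g1, a casein kinase that phosphorylates LRP6, at 30.3 ± 5.01 against 45.7 ± 2.59 (log2 fold change -0.59, SE 0.22; limma BH-adjusted p = 0.105). It passed with libraries scaled to their totals (limma BH-adjusted p = 0.0339). Tnks2, Csnk1g2 and Dvl2 followed, with log2 fold changes of -0.75, -0.44 and 0.46 (limma BH-adjusted p = 0.206, 0.253 and 0.330). Tnks2 passed without Ly6C- replicate 1 (limma BH-adjusted p = 0.0371). Csnk1g2 passed with a replicate block (adjusted p = 0.0386 in limma and 0.0409 in edgeR). Apc itself fell under the filter, with 7 and 10 reads.

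Genes of the planar polarity and other beta-catenin-independent branches passed for 5 of 23, a share near the 17.1% of all genes tested. Prickle1, a core polarity gene, was the member that was lower in Ly6C+ pCAFs, at 75.0, 75.9 and 131 against 215, 337 and 228 (log2 fold change -1.48, SE 0.26; limma BH-adjusted p = 0.00210). Those that were higher were the phospholipase gene Plcb4 (3.88-fold), the calcium-responsive factor genes Nfatc2 (3.97-fold) and Nfatc1 (1.66-fold), and the ciliary effector gene Fuz (2.77-fold). The Nfatc1 call ended without Ly6C+ replicate 2 (limma BH-adjusted p = 0.101) or Ly6C- replicate 2 (0.0768) and with libraries scaled to their totals (0.0660). The Fuz call ended without Ly6C+ replicate 1 (0.0635) and after thinning the libraries to equal depth (0.0992 in limma). The median log2 fold change of the 23 genes was 0.04.

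At the ligand level, Wnt5a, which signals through ROR2, stood at 2.44, 6.01 and 5.41 in Ly6C+ and at 53.1, 59.5 and 66.9 in Ly6C- libraries, so ligand and receptor were both lower in Ly6C+ pCAFs. Of 10 ligand and secretion genes tested, 4 were lower (Wnt5a, Wnt11, Wnt2b and Wnt4), none was higher and 6 did not pass. Wnt4 was uneven, at 131, 84.2 and 17.0 in the Ly6C- libraries. The Wnt2b call ended after thinning to equal depth (limma BH-adjusted p = 0.0504). Of 8 secreted antagonists and R-spondins tested, Sfrp1, Sfrp2 and Sfrp4 were higher in Ly6C+ pCAFs, Frzb and Dkk3 were lower and 3 did not pass. Beside the ligand and antagonist counts, 9.41% of all genes tested were higher and 7.66% lower. The Sfrp1 call ended without Ly6C+ replicates 2 or 3 or Ly6C- replicate 2 (limma BH-adjusted p = 0.0832, 0.0698 and 0.0699), or without the mean-variance trend (0.0727).

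Beta-catenin also binds cadherins, and 4 of 7 tested genes of a cadherin and catenin list passed in limma, against 5 in edgeR and in DESeq2. Over all genes tested, 17.1% passed in limma. The catenin genes Ctnnd1 (73.0 ± 3.15 against 125 ± 20.6) and Ctnna1 (253 ± 25.1 against 389 ± 76.0) and the cadherin gene Cdh3 were lower in Ly6C+ pCAFs, and Cdh13, a cadherin without a cytoplasmic tail, was 7.0-fold higher. The gene that edgeR and DESeq2 added was Vcl, which encodes vinculin, at 45.7, 51.9 and 61.0 in Ly6C+ and at 38.4, 174 and 206 in Ly6C- libraries. Its adjusted p was 0.187 in limma, 0.0492 in edgeR with TMM scaling and 0.00632 in DESeq2, and 0.000113 in limma without Ly6C- replicate 1, the library that lay below the Ly6C+ range. The Ctnna1 call ended in 6 of 20 alternatives (limma BH-adjusted p up to 0.145), among them every one that left out a library except Ly6C- replicate 1. That of Ctnnd1 ended without Ly6C+ replicate 1 (0.0563 in limma) or Ly6C- replicate 2 (0.0998). Over all pathway genes outside the 10, each counted 1 time, 113 were tested, of which 21 were higher, 18 were lower and 74 did not pass. That is 34.5% called, beside the same 17.1% of all genes tested. The lists too were chosen with earlier results of these data known, so this share is a description.

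**Figure D5:**
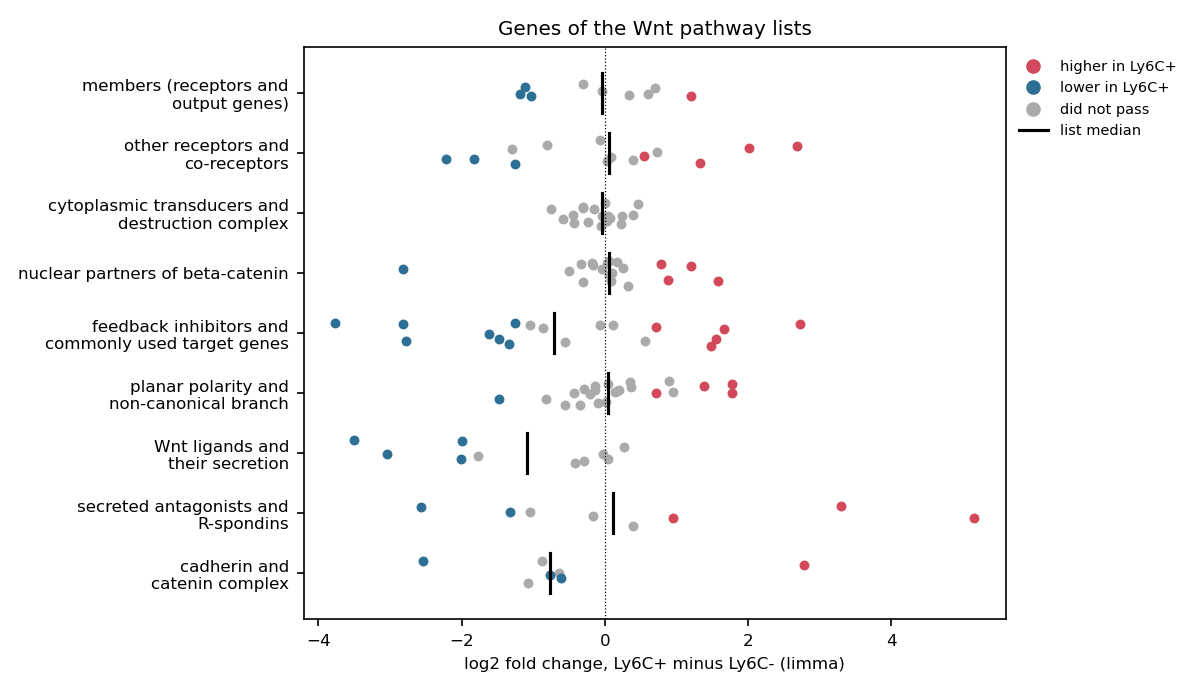
Log2 fold change (horizontal axis, Ly6C+ minus Ly6C-) of every tested gene in each Wnt pathway list (rows), coloured by its limma call, with the list median as a bar. The row of transducers and the destruction complex holds 18 genes and no call, and the row of targets holds 7 lower and 5 higher.

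The genes most like some of these in pattern were found by Pearson's r of log2(value + 1) over the 6 libraries among 6704 genes with a mean of at least 20. With so few libraries and so many genes, high values of r are common, and they are given as a description. For Fzd1 they were Rps27l (r = 0.998), Il11 (0.996) and Kif22 (0.990). For Ror2 they were Egln3 (0.996), Arg1 (0.994) and D630010B17Rik (0.992), all lower in Ly6C+ pCAFs. For Axin2 they were Fbxl6 (0.997), Tead2 (0.994) and P3h4 (0.991), none of which passed the test (limma BH-adjusted p = 0.285, 0.132 and 0.213). For Ctnnb1 they were Phc2 (0.997), Usp5 (0.995) and Pdgfrb (0.994).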

How the data were processed

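Sorted pCAFs from 4T1 tumours were measured by 3′ end RNA sequencing, 3 libraries in each of 2 groups taken from the sample titles. Per the submitters' processing notes bcl2fastq, HTSeq and STAR 2.4.2a were used with the mm10 build. The deposited table holds signal values, normalised counts made by the authors by dividing each gene's reads by 1 size factor per library. How the size factors were computed, which annotation was used and whether strand was used is not given in the sources used here. In every library 100.0% of values were whole multiples of the smallest (tolerance 0.001), so whole reads were recovered for the count tools.

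Groups were compared in R 4.3.3 by limma 3.58.1 on log2(value + 1), the prior following the mean-variance trend. A pseudocount understates the change of low genes. Genes needed a mean of at least 5, which kept 9646 of 12235. Benjamini-Hochberg adjustment ran over all genes tested. Confidence intervals used the moderated degrees of freedom. The pipeline was tested on simulated data. Alternatives were pseudocounts of 0.5 and 5, a minimum mean of 20 or none, other scalings, no trend, a replicate block, each library left out, edgeR 4.0.16, DESeq2 1.42.0, thresholds of 0.01 and 0.1, and thinning to 1176909 reads, which was added after the data were seen. Library totals bound the precision: low genes rest on few reads, and counting intervals cover counting error only.

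The genes and lists were chosen with earlier results of these data known. The rule for naming genes took all 10, per list up to 4 tested genes with the smallest p (6 for a leading list), any needed to complete a count of 5 or fewer, and the 3 most alike in pattern, which are not reported here for Fzd2, Lrp5 and Lrp6. Tcf7, Lgr5, Prickle1, Dkk1 and Wif1 belong to more than 1 pathway list. Coordinates came from GENCODE M21 and promoters from RefSeq GRCm38.p6. Figures used Python 3.11.15 and matplotlib 3.10.9.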

Additional observations from a re-analysis of the deposited data

How the results depend on the processing

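Fzd1 and Ror2 passed in each of 20 alternatives (adjusted p at most 0.0209 and 0.0200). Lrp6 and Axin2 each lost their call in 3, all of which left out a library: over the 6 libraries left out in turn, the log2 fold change ran from 0.93 to 1.48 for Lrp6 and from -1.49 to -0.98 for Axin2. The number of the 10 genes past the test, 4, ran from 2 to 4 with a library left out (2 without Ly6C+ replicate 2 or without Ly6C- replicate 2) and was 2 at an adjusted p under 0.01. The number of all genes past the test, 1647, was 959 at an adjusted p under 0.01 and ran from 1121 to 1728 with a library left out. Lrp5, which did not pass anywhere, changed sign from -0.04 to 0.02 after thinning to equal depth, and ran from -0.17 to 0.13 with a library left out. Ctnnb1 passed when libraries were scaled to their totals (-0.51). That scaling moved the share of higher calls among all genes from 55.1% to 37.4%. The numbers of pathway genes higher (21) and lower (18) stayed within 1.5 times. The 4 ratios between genes kept their direction.

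The main fit did not take the replicate numbers as pairs. Same-numbered libraries of the 2 groups deviated together only weakly (r = 0.13, 0.05 and 0.17), although every library correlated best with its own number. These values do not settle whether the libraries were paired. With the replicate number as a block, 2088 genes passed in limma and 2112 in edgeR, and the block changed no call of the 10 genes, with 4 past the test. Outside the 10 it added calls in limma and edgeR for Csnk1g2 (adjusted p = 0.0386 and 0.0409) and Prickle3 (0.0377 and 0.0370), among others.

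Depth limits Lef1, Fzd4, Fzd7 and Fzd8, which rest on 2 to 96 reads in a group. It also bears on other calls. Lrp6 rested on 92 reads in the Ly6C- group (44, 33 and 15 by library), against 291 in Ly6C+. Tcf7 rested on 12 reads in Ly6C+ and 65 in Ly6C-, and Wnt5a on 19 in Ly6C+ and 175 in Ly6C-.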
